A study of Mus musculus with 16 samples.

Results

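The nuclear-encoded subunits of the oxidative phosphorylation complexes were described across the cell clusters and time points of a mouse spinal cord injury study. Members were chosen by gene symbol, as genes that begin with Nduf, Uqcr, Cox, Atp5 or Sdh in the forms used for complex subunits and that had at least 1 count, and 84 of the 41193 genes with a count qualified. Single cells of the spinal cord were profiled by 3′ tag sequencing with unique molecular identifiers (UMIs, each standing for 1 captured RNA molecule) in 16 mice, before a dorsal column lesion or 1 d, 7 d or 14 d after it. The study asks how removing Ryk, a Wnt receptor, from astrocytes alters the response of the cord to the lesion. Animals were 8 to 10 weeks old, and each of the 8 groups had 2 mice. The knockout mice were Rykfl/fl,GFAPcreERT2 (cKO) and the controls Ryk+/+,GFAPcreERT2 (WT). Both received tamoxifen and both carried the Cre, whose human GFAP promoter limits recombination mainly to astrocytes and other cells that use that promoter. The labels call the mice without a lesion Sham, while the study describes them as uninjured, and they are called uninjured here.

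The deposited table held 53347673 UMIs, and the authors' 17 clusters held 119 to 4201 cells each. Replicate 2 of the WT group at 1 d had 1 cell with 266 UMIs and was left out, so WT at 1 d rests on 1 mouse. Total UMIs in the other 15 mice ran from 536263 in WT 1 d replicate 1 to 9008729 in cKO 7 d replicate 2. The median UMIs per cell were 414 in WT 1 d replicate 1, 421 in cKO 1 d replicate 1, 414 in WT 7 d replicate 1 and 548 in cKO 7 d replicate 1, and from 1040.5 to 3637 in the remaining 11. Those 4 shallow mice and replicate 1 of both uninjured groups have animal numbers below 10000, and all 14 d mice have higher numbers. In 6 mice, all of them replicate 2, the cell names carry another condition than the sample labels, and the labels were followed. Of 17937 cell barcodes, 166 occurred in more than 1 mouse, in 432 cells. The authors' table also gives a batch, which equals the replicate number in 16 of 16 mice, so values at different times are given within each replicate too.

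Oxidative phosphorylation takes place in the inner mitochondrial membrane. Complexes I and II feed electrons from NADH and succinate into the chain, complex III passes them to cytochrome c, complex IV hands them to oxygen, and complex V uses the proton gradient that complexes I, III and IV build to make ATP. Most subunits are encoded in the nucleus and imported, while a small set of core subunits is encoded by mitochondrial DNA, and neurons in the spinal cord are known for a high demand for ATP made this way.

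Complex I (NADH dehydrogenase) contributed 35 members, complex II (succinate dehydrogenase) 4, complex III (cytochrome bc1 complex) 8, complex IV (cytochrome c oxidase) 20 and complex V (ATP synthase) 17. Together they took 574432 UMIs, or 1.08% of all UMIs. Complex I held 31.7% of the member UMIs, complex II 2.68%, complex III 10.3%, complex IV 28.9% and complex V 26.4%. These shares stayed in narrow ranges among the 10 clusters large enough to test: 28.7% to 34.9% for complex I, 8.93% to 11.3% for complex III, 26.0% to 30.7% for complex IV and 23.1% to 27.9% for complex V, with complex II between 2.18% in cluster 10 and 4.58% in cluster 7. In the annotation, 83 members matched a gene by symbol, the exception being Atp5md, a small membrane subunit of ATP synthase. Of these, 82 are protein coding, 1 is a pseudogene (Cox6c2), 3 lie on the X chromosome (Ndufa1, Ndufb11 and Cox7b), and the members are spread over 19 chromosomes.

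Depth varied among members. The members with most UMIs in each complex were Ndufb9, an accessory subunit of complex I (10584 UMIs, chr15:58933756-58939488 on the plus strand of GRCm38), Sdha, the flavoprotein that oxidizes succinate (6811, chr13:74322254-74350280, minus), Uqcrh, the hinge subunit that helps cytochrome c dock on complex III (11881, chr4:116066965-116075071, minus), Cox4i1, a regulatory subunit of complex IV (24186, chr8:120668222-120674207, plus), and Atp5e, the epsilon subunit of the ATP synthase stalk (16953, chr2:174461072-174464105, minus). At the other end, 9 members had fewer than 1000 UMIs and 3 had fewer than 50, namely Cox8c (1), Cox8b (39) and Cox6c2 (45). After the filter on low counts, 71 members could be tested in all 10 clusters and 80 in at least 1, and Cox6b2, Cox6c2, Cox8b and Cox8c could be tested in none.

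Across the authors' clusters, the summed level of the members, given as the percent of all UMIs of a mouse and cluster, was high in 2 of the 3 astrocyte clusters and low in neurons. In cluster 2, an astrocyte cluster, it was 2.46% ± 0.742 (SD, n = 11 mice, only 2 of them with animal numbers below 10000, at 1.31% and 1.52%, and the others at 2.17% to 4.17%), and in cluster 5, also astrocytes, 2.18% ± 0.820 (n = 14). Neurons of cluster 3 had 0.513% ± 0.203 (n = 15), a ratio of 4.24 between the means of clusters 5 and 3, and the ranges over mice, 1.03% to 3.69% and 0.286% to 0.886%, did not overlap. The third astrocyte cluster, cluster 7, had 0.743% ± 0.204 (n = 15), near the neurons and far from the other astrocytes. The values of cluster 5 fell into separate ranges by animal number. In the 5 mice with numbers below 10000 they were 1.03% to 1.38%, with 2.18% to 3.97% of UMIs from Malat1, a long RNA kept in the nucleus. In the other 9 mice they were 2.43% to 3.69%, with 0.176% to 0.752% from Malat1, so the mean of cluster 5 lies between the ranges and its high level rests on these 9. Without the mice numbered below 10000, the ratio of the means of clusters 5 and 3 was 4.75. In each of the 10 tested clusters, the marker list of the cell type in its name stood highest above its mean over clusters, with all markers of that list above their mean, among them Slc1a2 in the astrocyte clusters and Meg3 in neurons.

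Between these ends, the order was cluster 8 of oligodendrocytes with 1.504% ± 0.527 (n = 14), fibroblasts of cluster 14 with 1.47% ± 0.584 (n = 9), immune cells of cluster 12 with 1.42% ± 0.401 (n = 10) and Schwann cells of cluster 15 with 1.41% ± 0.344 (n = 5). Microglia of cluster 10 had 1.39% ± 0.329 (n = 14), pericytes of cluster 9 had 1.37% ± 0.341 (n = 15), red blood cells of cluster 17 had 1.24% ± 0.288 (n = 4) and endothelial cells of cluster 1 had 1.22% ± 0.341 (n = 15). Neighbours in this stretch differed by less than their spread between mice. Below them came cluster 13, which has no cell type name but has ependymal genes as its highest marker list, with 1.18% ± 0.373 (n = 10), the myeloid cluster 16 with 1.08% ± 0.512 (n = 5), oligodendrocyte precursors of cluster 11 with 1.07% ± 0.517 (n = 14), oligodendrocytes of cluster 4 with 0.990% ± 0.352 (n = 15) and microglia of cluster 6 with 0.969% ± 0.327 (n = 14).

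The low end of the order held in most single mice, where library depth and time after lesion are shared, and the high end held less often. Neurons were lowest of clusters 1 to 11 in 13 of 15 mice, whereas cluster 2 or 5 was highest in 10 of 15. Astrocyte cluster 5 lay above neurons in 14 of 14 mice, with a median ratio of 4.01 and a range of 1.98 to 8.07. It lay above astrocyte cluster 7 in 14 of 14 mice as well (median ratio 3.21, range 1.32 to 5.75), above microglia of cluster 10 in 11 of 14 and above pericytes in 10 of 14, whereas clusters 5 and 2 could not be ordered, with cluster 5 higher in 5 of 11 mice. Paired clusters of 1 cell type were apart too: microglia of cluster 10 exceeded those of cluster 6 in 14 of 14 mice (median ratio 1.46), and oligodendrocytes of cluster 8 exceeded those of cluster 4 in 14 of 14 (median ratio 1.501). Since clusters were drawn from gene expression in the same cells, these orders are descriptions without a test. The level sum with the widest counting error was that of neurons in WT 1 d replicate 1, where 27 of 7570 UMIs in 18 cells gave 0.357% with a 95% Wilson interval of 0.245% to 0.518%.

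**Figure D1:**
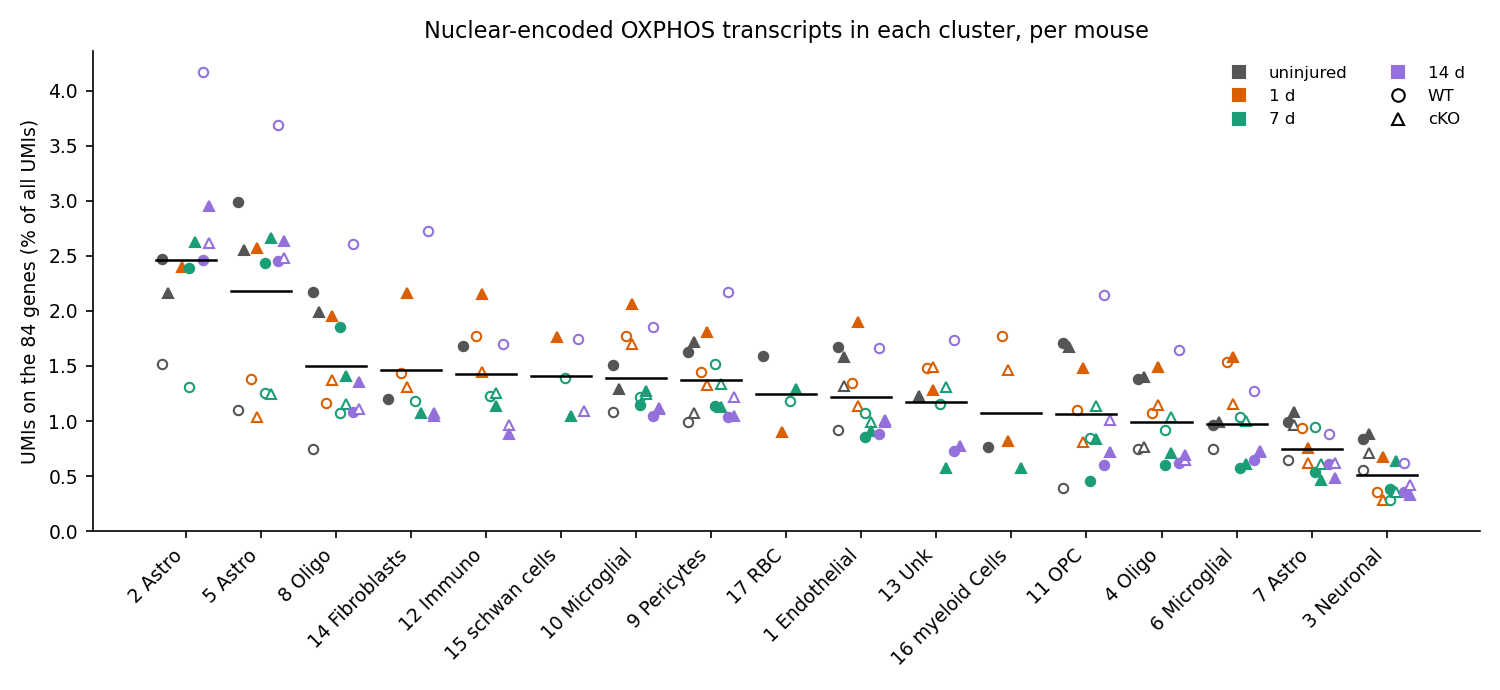
Summed level of the 84 members (percent of all UMIs, y axis) in each cluster (x axis), 1 symbol per mouse, coloured by time after the lesion, with circles for WT, triangles for cKO, open symbols for replicate 1, filled symbols for replicate 2 and bars at the mean. Astrocyte clusters 2 and 5 have the highest means, 2.46% and 2.18%, and neurons of cluster 3 the lowest, 0.513%.

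Most members of 4 of the 5 complexes followed the pattern of high levels in cluster 5 and low levels in neurons. A highest mean in cluster 5 together with a lowest mean in neurons, of the 10 tested clusters, was found for 23 of 35 members of complex I, 3 of 4 of complex II, 7 of 8 of complex III, 12 of 17 of complex V and 10 of 20 of complex IV. Among the 10 tested clusters, 62 of the 84 members had their highest mean level in astrocyte cluster 5, and 68 had their lowest in neurons. In complex I, mean levels of Ndufb9 were 473 ± 238 CPM (counts scaled to 1e6 UMIs of that mouse and cluster, SD, n = 14 mice) in cluster 5 and 89.5 ± 41.9 (n = 15) in neurons. Ndufc1, an accessory subunit of the membrane arm, had 273 CPM against 54.2. For the catalytic arm, the low end was not in neurons: Ndufv1, which binds NADH, and Ndufs1, which holds iron-sulfur clusters of the same arm, had 83.8 and 104 CPM in cluster 5 and their lowest means, 24.7 and 28.5 CPM, in microglia of cluster 10. The widest contrasts over all 17 clusters, apart from that of Cox4i2, belonged to Ndufb2, Ndufa12 and Ndufc1 of complex I and Sdhc, a membrane anchor of complex II. Their lowest means, 5.67, 3.76, 22.7 and 4.44 CPM, were all in the myeloid cluster 16, where they rest on 5, 2, 14 and 7 UMIs in 5 mice, while their means in cluster 5 were 218, 180, 273 and 144 CPM.

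In complex II, 3 of the 4 members followed the common order among the 10 tested clusters, and Sdha differed at its low end. Sdha had 221 ± 101 CPM in astrocyte cluster 5 (n = 14), 148 in astrocyte cluster 7, and its lowest mean of the tested clusters, 86.0 ± 29.2 (n = 14), in microglia of cluster 10. Sdhb, the iron-sulfur subunit, went from 123 CPM in cluster 5 to 42.1 in neurons. In complex III, the level of Uqcrfs1, the Rieske iron-sulfur protein, was 126 ± 42.2 CPM in cluster 5 (n = 14) and 17.4 ± 16.6 in neurons (n = 15), and that of Uqcrc1, a core subunit, was 159 against 43.0. Uqcrh went from 465.8 to 101 CPM between the same clusters.

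In complex IV, Cox4i1 had 1033 ± 509 CPM in cluster 5 (n = 14), 256 in neurons and its lowest mean, 222 ± 88.8 (n = 15), in astrocyte cluster 7. Cox8a, the common form of subunit 8, had 867 CPM in cluster 5 and 144 in neurons. The nuclear-encoded subunits Cox5a, Cox5b, Cox6a1, Cox6b1 and Cox7a2, which surround the catalytic core, went from 328, 478, 368, 385 and 405 CPM in cluster 5 to 82.4, 97.0, 84.00, 70.0 and 91.1 in neurons. Cox7a2l, which takes part in assembling supercomplexes of complexes III and IV, had similar means in microglia clusters 10 and 6, at 232 ± 112 and 229 ± 85.1 CPM (n = 14 each), the highest of the 10 tested clusters, and its lowest mean in astrocyte cluster 7, at 53.9 ± 24.5 (n = 15). Its mean in astrocyte cluster 2, which was not among the tested clusters, was 275 CPM, and in single mice cluster 5 was most often the highest tested cluster, in 6 of 14. Ndufa4, named for complex I but now assigned to complex IV, had 554 CPM in cluster 5 and 124 in neurons.

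In complex V, the catalytic subunits of the ATP synthase head followed the common order. Atp5b (beta) had 741 ± 231 CPM in cluster 5 (n = 14) and 170 ± 117 in neurons (n = 15), and Atp5a1 (alpha) had 547 against 115. Atp5e had its highest mean of the tested clusters in microglia of cluster 10, 595 ± 205 CPM (n = 14), where it was highest in 7 of 14 mice, and a mean of 666 CPM in the immune cells of cluster 12. The membrane ring subunit c is made from 3 genes that encode the same mature protein. Their shares of the UMIs of the 3 genes, given as means over mice, differed between microglia and both neurons and astrocyte cluster 5. Atp5g1 gave 53.6% ± 12.4 in microglia of cluster 6 (497 of 932 UMIs over all mice) and 53.3% ± 8.87 in cluster 10 (723 of 1351). Similar means were not limited to microglia: oligodendrocytes of cluster 8 had 52.5% ± 9.13, immune cells of cluster 12 53.3% ± 13.2 and fibroblasts of cluster 14 53.2% ± 23.3. Schwann cells of cluster 15 had 61.0% ± 15.7, and oligodendrocytes of cluster 4 had 45.7% ± 11.3. Atp5g1 gave 33.2% ± 13.6 in neurons (386 of 1006) and 37.2% ± 10.7 in astrocyte cluster 5 (708 of 2122), which overlap and whose order is the reverse in the UMIs over all mice. Atp5g3 gave 60.8% ± 15.2 in neurons and 60.1% ± 11.1 in cluster 5, against 36.7% ± 9.01 and 38.6% ± 6.72 in clusters 6 and 10.

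Some subunits have a second gene used in particular tissues, and Cox4i2 was the member with the sharpest cell type pattern. It encodes the alternative form of subunit 4, known from lung and from oxygen sensing (chr2:152754173-152765037 on the plus strand). In pericytes of cluster 9 its level was 241 ± 46.4 CPM (n = 15, 166 to 336, 696 UMIs), and it was highest there in 15 of 15 mice. Its next highest mean among the tested clusters was 7.42 CPM in endothelial cells of cluster 1. As a mean over mice of its share of the UMIs of Cox4i1 and Cox4i2, Cox4i2 gave 36.3% ± 7.42 in pericytes (24.9% to 50.7%, 696 of 1833 UMIs over all mice) and 1.72% in endothelial cells (77 of 4137).

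Ndufa4l2, a paralogue of Ndufa4 that the symbol rule leaves out, had the same distribution. Its level was 418 ± 64.4 CPM in pericytes (n = 15, 256 to 533, 1179 UMIs), 12.6 in endothelial cells, and it too was highest in pericytes in 15 of 15 mice. The ratio of Ndufa4l2 to Cox4i2 UMIs was 1.69 in pericytes and 1.75 in endothelial cells, so the few endothelial UMIs kept the ratio found in pericytes. The Cox4i2 level in pericytes barely varied with time: edgeR gave log2 differences from uninjured of 0.12 at 1 d (SE 0.390), 0.04 at 7 d (SE 0.334) and 0.05 at 14 d (SE 0.317), and −0.05 between cKO and WT after the lesion (SE 0.288), none of them past the threshold.

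Cox6a2, the heart and muscle form of subunit 6a, was found in microglia. Its mean was 56.0 ± 42.0 CPM in cluster 10 (n = 14, 225 UMIs), the highest of the tested clusters in 13 of 14 mice, and 15.99 ± 17.7 in cluster 6 (n = 14). Its mean share over mice of the UMIs of Cox6a1 and Cox6a2 was 20.9% ± 13.5 in cluster 10 (225 of 1000 UMIs over all mice) and 8.93% ± 7.40 in cluster 6 (52 of 595). In the immune cells of cluster 12 it was 6.63% ± 11.5, from 0% to 32.7% in single mice (40 of 244). In cluster 10, its levels were 38.9 and 36.6 CPM in the WT uninjured mice and 0 in cKO uninjured replicate 2, from 1, 1 and 0 UMIs, and 153.7, 35.8, 52.1 and 54.4 CPM in the 4 mice at 14 d. The groups overlapped, and adjusted p was 0.906 at 1 d, 0.436 at 7 d and 0.377 at 14 d in edgeR. Cox7a1, the muscle form of subunit 7a, had its highest mean in astrocyte cluster 5, 36.8 ± 21.9 CPM (n = 14), and a mean share over mice of the UMIs of Cox7a1 and Cox7a2 of 9.66% ± 9.61 there (119 of 1556 UMIs over all mice) and 10.3% ± 11.98 in astrocyte cluster 7 (41 of 492).

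A pair of low-level members was highest in astrocyte cluster 7, where most others were low, and both were picked after their values were seen. Cox7b2, a paralogue of Cox7b known from testis, had 28.1 ± 20.3 CPM there (n = 15) and a mean share over mice of the UMIs of Cox7b and Cox7b2 of 19.5% ± 14.0 (157 of 593 UMIs over all mice), against 6.44% ± 6.84 in neurons (67 of 669). Atp5o, the symbol of a stalk subunit of ATP synthase, had 91.9 ± 48.6 CPM (n = 15, 484 UMIs) and was highest in cluster 7 in 12 of 15 mice. This symbol has 2 entries in the annotation, and the entry used spans chr16:91684398-91926982 on the minus strand. Which entry the UMIs belong to was not tested, so the pattern may not be that of the stalk subunit. Cox6b2, the testis form of subunit 6b, reached 28.2 CPM in fibroblasts of cluster 14, and Cox8b stayed at or below 3.8 CPM in all clusters.

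**Figure D2:**
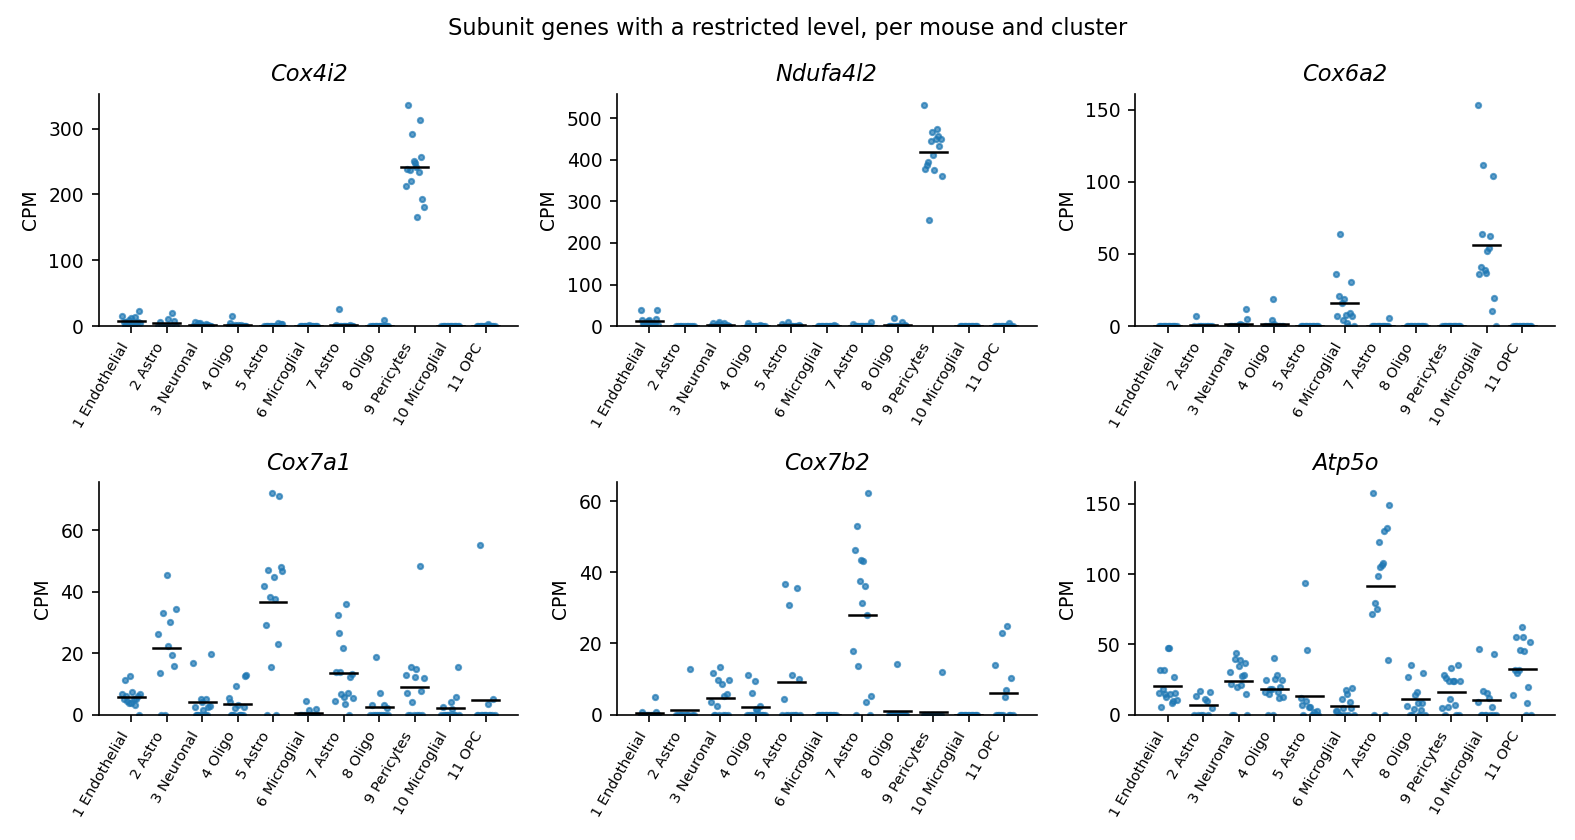
Levels of Cox4i2, Ndufa4l2, Cox6a2, Cox7a1, Cox7b2 and Atp5o (CPM, y axes) in clusters 1 to 11 (x axes), with 1 point per mouse and bars at the mean. Cox4i2 has a mean of 241 CPM in pericytes of cluster 9, Cox6a2 one of 56.0 CPM in microglia of cluster 10 and Cox7a1 one of 36.8 CPM in astrocyte cluster 5.

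Transcripts encoded by mitochondrial DNA were also highest in astrocyte clusters 2 and 5, at 4.80% and 4.18% of UMIs, against 1.89% in cluster 7 and 1.98% in neurons. Across the 17 clusters, the summed levels of nuclear and mitochondrially encoded subunits had a Pearson r of 0.385 and a Spearman rho of 0.25, and over the 10 tested clusters r was 0.300 and rho −0.02, a description over clusters that share the same mice. Malat1 took 0.544% of UMIs in cluster 2 and 1.46% in cluster 5, against 3.41% in cluster 7, 2.31% in neurons and 4.15% in pericytes, with r = −0.414 and rho = −0.328 against the members over the 17 clusters and −0.270 and −0.309 over the 10. The part of nuclear RNA content in the cluster order was not tested. Ppargc1a, a coactivator of mitochondrial genes, had its highest mean in cluster 7, 215 ± 58.9 CPM (n = 15), against 111 in cluster 5, although the members were lower in cluster 7.

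After the lesion, the test of each member in each cluster asked which subunits differed from uninjured mice at 1 d, 7 d and 14 d. All 3 comparisons share the uninjured mice. Of 750 tests of members in the 10 clusters at 7 d, edgeR called 1 at a Benjamini-Hochberg adjusted p below 0.05, against 0.0691% of all 75264 gene tests called. It was Cox5b, which encodes a zinc-binding subunit of complex IV (chr1:36691449-36693681, plus strand), and it fell in astrocyte cluster 7, where 0.0377% of all genes were called at 7 d.

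In cluster 7, Cox5b stood at 98.9 CPM in WT uninjured replicate 1, 275 in WT uninjured replicate 2, 326 in cKO uninjured replicate 1 and 230 in cKO uninjured replicate 2. At 7 d it stood at 106 in WT replicate 1, 54.9 in WT replicate 2, 28.0 in cKO replicate 1 and 47.2 in cKO replicate 2, from 4, 16, 1 and 47 UMIs. At 7 d, 3 of 4 mice lay below all uninjured mice, while WT replicate 1 lay just above WT uninjured replicate 1, so the groups overlapped. The log2 difference was −2.05 (SE 0.364, adjusted p = 0.00240 in edgeR). The call was lost with DESeq2, where the log2 difference was −2.13 (adjusted p = 0.0764). In edgeR it was lost in WT mice alone (−1.55, adjusted p = 0.936) and with the conditions in the cell names (−0.72, adjusted p = 0.863). It was also lost without WT 7 d replicate 2 (−1.82) and without cKO 7 d replicate 2 (−2.54), but not without replicate 1 of either 7 d group. Each of these fits leaves 1 mouse in a 7 d group. The difference thus shrank most with the conditions in the cell names. At 1 d the levels were 226 in WT replicate 1, 144 in cKO replicate 1 and 131 in cKO replicate 2. At 14 d they were 206 in WT replicate 1, 73.7 in WT replicate 2, 71.0 in cKO replicate 1 and 71.6 in cKO replicate 2, so 3 of the 4 mice again lay below all uninjured mice.

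Short of that threshold, member values at 7 d leaned to the lower side. This direction was not shared by the replicates: the summed levels described below had a median log2 difference of −0.76 within replicate 2 and 0.28 within replicate 1. With the conditions in the cell names that median was 0.07. In clusters 5, 6, 8, 10 and 11, the replicate 1 value compares WT mice alone, since cKO uninjured replicate 1 had too few cells. The median log2 difference over the 750 tests was −0.61, against 0.06 over all genes, and 629 of the 750 were below 0. At an unadjusted p under 0.05, 149 member tests were lower and 7 higher, or 20.8% of member tests against 7.39% of all gene tests, while DESeq2 called 0 of the members. The medians by complex were −0.67 for complex I, −0.34 for complex II, −0.55 for complex III, −0.66 for complex IV and −0.66 for complex V. In complex II, 1 test was lower and 3 higher of 37 at that p, and in complex I 75 were lower and 1 higher of 348, a difference between complexes that was not tested. With the replicate block, 6 members were called at 7 d, against 0.128% of all genes, all falls in cluster 7. Besides Cox5b they were Ndufa2 and Ndufb8 of complex I, Uqcr11 of complex III, Cox6c of complex IV and Atp5md of complex V, all small accessory subunits.

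Endothelial cells, astrocyte cluster 7 and neurons held most of these lower values at 7 d. In endothelial cells of cluster 1, 47 of 77 members tested were lower at an unadjusted p under 0.05, or 61.0% against 5.999% of all genes lower at that p, with a median of −0.82 against −0.04 over all genes. In cluster 7 the count was 40 of 76, or 52.6% against 4.56% of all genes, with a median of −0.78 against 0.00. In neurons it was 26 of 73, or 35.6% against 4.90%, with −0.78 against −0.03. Not all subunits shared it: in cluster 7, Ndufv1 had a log2 difference of −1.26 (adjusted p = 0.450 in edgeR), whereas Sdha had −0.05 and Atp5b −0.27. Microglia of cluster 10 had 0 lower and 3 higher members at that p, or 3.95% of members against 13.6% of all genes in either direction, with a median of 0.24 against 1.27 over all genes, from uninjured samples of only 13 to 28 cells.

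At 14 d, edgeR called 0 of 750 member tests, against 0.191% of all genes, with 95 lower and 9 higher at an unadjusted p under 0.05, or 13.9% of member tests against 8.10% of all gene tests, and 0 called by DESeq2. The median was −0.35 against 0.11 over all genes. Here too the replicates parted, with a median log2 difference of the summed levels of −0.79 within replicate 2 and 0.71 within replicate 1. In clusters 5, 6, 8, 10 and 11, cKO uninjured replicate 1 had too few cells. The replicate 1 value there compares WT 14 d replicate 1, a mouse flagged below as high, with WT uninjured replicate 1 alone. It ran from 0.77 to 2.46 in those clusters and from −0.30 to 0.65 in clusters 1, 3, 4, 7 and 9. With the replicate block, 2 members were called, against 0.271% of all genes: Cox5a in neurons and Cox5b in astrocyte cluster 7, both as falls. Neurons held the largest group of lower values, 40 of 73 members tested, or 54.8% against 6.03% of all genes lower at that p, with a median of −0.86 against 0.04 over all genes, and the medians in neurons were −0.73 for complex I, −0.91 for complex II, −0.88 for complex III, −1.03 for complex IV and −0.91 for complex V.

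Cox5a, a matrix-side subunit of complex IV (chr9:57521274-57532426, plus strand), came closest to the threshold in neurons. Its levels in neurons of uninjured mice were 137.1 and 173.0 CPM in the WT and 103.9 and 122.9 in the cKO. At 14 d they were 71.1 and 37.3 CPM in the WT and 60.2 and 42.5 in the cKO. All 4 mice at 14 d lay below all 4 uninjured mice. The log2 difference was −1.42 (SE 0.360, adjusted p = 0.0516 in edgeR). In the same fit Atp5a1 had −1.36 (edgeR adjusted p = 0.0875) and Uqcrfs1 −1.63 (edgeR adjusted p = 0.151), whereas Sdhb had −0.09.

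At 1 d, edgeR called 0 of 750 member tests, against 0.0412% of all genes, with 42 lower and 15 higher at an unadjusted p under 0.05, or 7.60% of member tests against 6.62% of all gene tests, and 0 called by DESeq2. Microglia had the higher values, in uninjured samples of 22 to 79 cells for cluster 6 and 13 to 28 for cluster 10, with too few cells in cKO uninjured replicate 1. In microglia of cluster 6, the summed level was 0.745% and 0.963% in the WT uninjured mice and 0.990% in cKO uninjured replicate 2, and at 1 d it was 1.54% in WT replicate 1, 1.15% in cKO replicate 1 and 1.58% in cKO replicate 2. In microglia of cluster 10, it was 1.08%, 1.51% and 1.29% in the same uninjured mice and 1.77%, 1.70% and 2.06% in the same 1 d mice. These were the 2 of 30 combinations of cluster and time in which the mice after the lesion did not overlap the uninjured mice. The log2 differences of the sums were 0.65 and 0.50, with 1.05 and 0.71 within replicate 1 and 0.67 and 0.67 within replicate 2. Each value within a replicate compares 1 mouse with 1 mouse, of WT in replicate 1 and of cKO in replicate 2. Mitochondrially encoded transcripts in cluster 6 stood at 3.66%, 2.95% and 0.867% in the 1 d mice and 1.84%, 0.631% and 0.603% in the uninjured mice, which overlapped. Malat1 was lower in the 1 d mice of cluster 6 (1.08%, 1.26% and 1.27%, against 2.05%, 1.60% and 1.69%) and glycolytic enzymes were higher (0.458%, 0.324% and 0.350%, against 0.200%, 0.238% and 0.183%), both without overlap. The part of these lists in the higher member sums was not tested.

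For cluster 6 at 1 d, 8 of 76 members were higher and 0 lower at an unadjusted p under 0.05. That is 10.53% of members, against 12.1% of all genes of cluster 6 in either direction, so the count is no more than the background. The medians were 0.51 for complex I, 1.09 for complex II, 0.39 for complex III, 0.50 for complex IV and 0.54 for complex V. Atp5b had 142 CPM in WT uninjured replicate 1, 198 in WT uninjured replicate 2 and 174 in cKO uninjured replicate 2. At 1 d it had 546 CPM in WT replicate 1, 321 in cKO replicate 1 and 320 in cKO replicate 2. All 1 d mice lay above the uninjured mice, with a log2 difference of 1.18 (SE 0.365) that did not pass the threshold (adjusted p = 0.238 in edgeR). In the same microglia at 7 d, Atp5b stood between 153 and 199 CPM, close to the uninjured range.

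**Figure D3:**
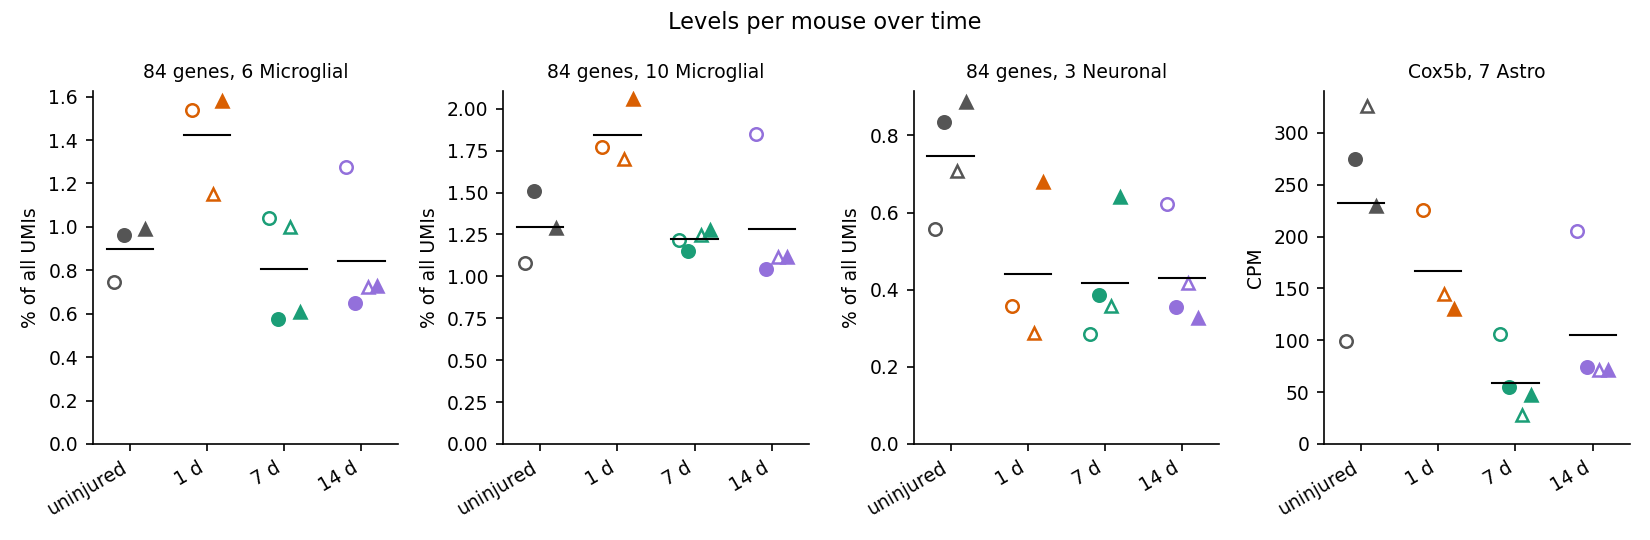
Levels per mouse by time after the lesion (x axis) for the summed members in microglia clusters 6 and 10 and neurons of cluster 3 (percent of UMIs, y axes) and for Cox5b in astrocyte cluster 7 (CPM, y axis), with circles for WT, triangles for cKO, open symbols for replicate 1, filled symbols for replicate 2 and bars at the mean. In cluster 6 the 1 d mice stand between 1.15% and 1.58%, above all uninjured mice, and Cox5b in cluster 7 stands between 28.0 and 106 CPM at 7 d.

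The mean summed level in neurons was lower after the lesion than before it. It was 0.556% and 0.834% in the WT uninjured mice and 0.708% and 0.886% in the cKO uninjured mice, then 0.357% in WT replicate 1, 0.287% in cKO replicate 1 and 0.678% in cKO replicate 2 at 1 d. It was 0.286%, 0.386%, 0.358% and 0.641% at 7 d and 0.623%, 0.355%, 0.418% and 0.326% at 14 d. At 7 d and at 14 d, 3 of 4 mice lay below all uninjured mice, while WT 14 d replicate 1 lay above WT uninjured replicate 1. The log2 differences were −0.89 at 1 d (−0.97 within replicate 1 and −0.39 within replicate 2), −0.88 at 7 d (−0.97 within replicate 1 and −0.79 within replicate 2) and −0.82 at 14 d (−0.30 and −1.34), against a spread within groups of 0.513, which is larger than the values within replicate 2 at 1 d and within replicate 1 at 14 d. The replicate 2 value at 1 d compares cKO mice alone. The neuron marker list took 1.37%, 0.600%, 1.85% and 0.342% of UMIs in the uninjured mice, and 1.97%, 2.16% and 0.769% at 1 d. The 7 d mice had 2.24%, 0.986%, 1.92% and 0.774% and the 14 d mice 1.16%, 0.935%, 0.561% and 1.06%, so the groups overlapped over both replicates. Within each replicate, all mice at 1 d and 7 d had more of the marker list than both uninjured mice. Malat1 in neurons took 2.78%, 1.30%, 1.47% and 0.796% of UMIs in the uninjured mice and 3.83%, 3.05% and 1.68% in the 1 d mice. It took 2.56%, 2.24%, 3.36% and 2.18% in the 7 d mice and 2.83%, 2.31%, 1.35% and 2.91% in the 14 d mice. Within replicate 2 all mice after the lesion thus had more Malat1 than both uninjured mice, and the part of Malat1 and of the marker list in the lower sums was not tested.

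In other clusters the replicates parted. In astrocyte cluster 7 the log2 difference at 7 d was −0.56, with −0.05 within replicate 1 and −1.06 within replicate 2. For endothelial cells it was −0.48, with −0.09 and −0.88, and for oligodendrocytes of cluster 4 it was −0.36, with 0.37 and −1.09. Over the 10 clusters, the median at 7 d was −0.32, with 0.28 within replicate 1 and −0.76 within replicate 2, and at 14 d −0.21, with 0.71 and −0.79. At 1 d it was −0.01, with 0.49 and 0.04. The direction of these medians at 7 d and 14 d held within replicate 2 and not within replicate 1, where the uninjured mice have animal numbers below 10000 and the 14 d mice do not, and with the conditions in the cell names they were 0.07 and 0.19. In clusters 5, 6, 8, 10 and 11, all replicate 1 values compare WT mice alone, since cKO uninjured replicate 1 had too few cells. At 1 d, the replicate 2 values compare cKO mice alone in all clusters.

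**Figure D4:**
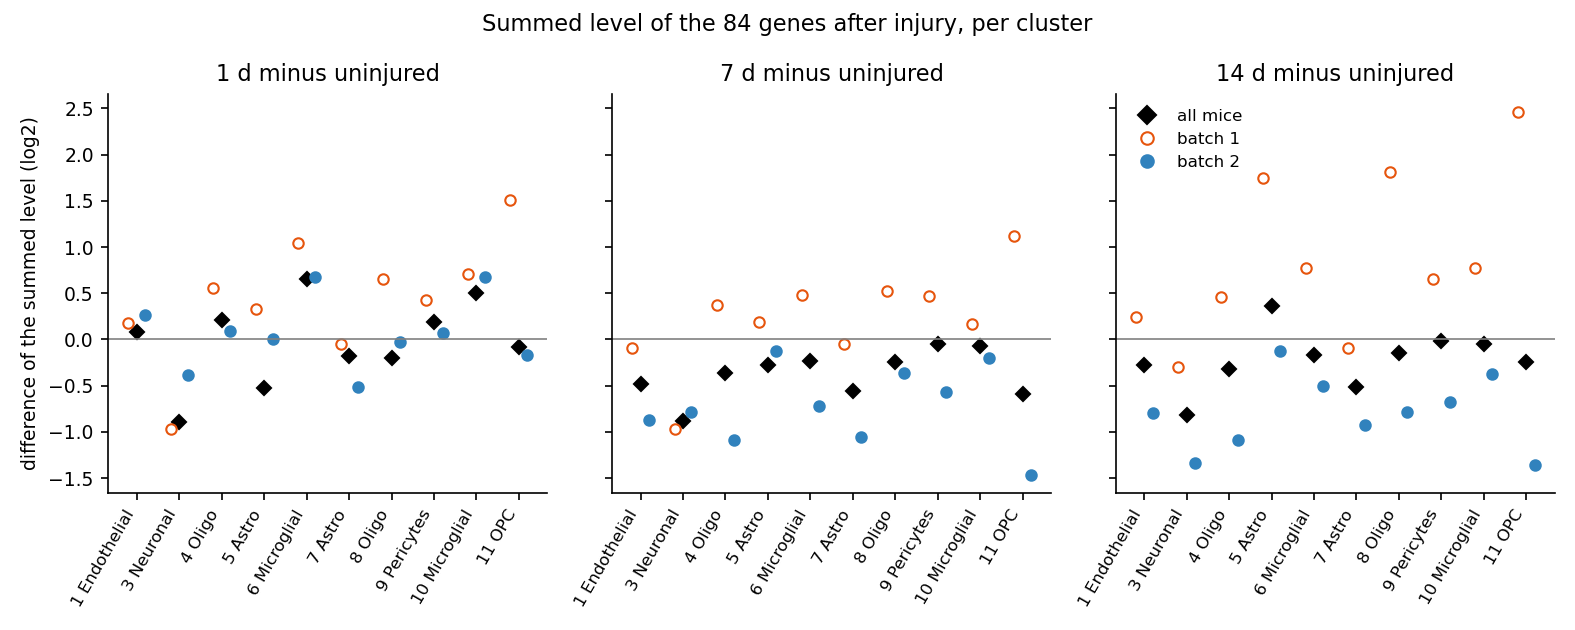
Differences of the summed level from uninjured mice (log2, y axes) in the 10 tested clusters (x axes) at 1 d, 7 d and 14 d, over all mice (diamonds), within batch 1, which is replicate 1 (open circles), and within batch 2, which is replicate 2 (filled circles). At 7 d, 10 of 10 clusters lie below 0 within batch 2 and 3 of 10 within batch 1. Batch 1 values compare WT mice alone in clusters 5, 6, 8, 10 and 11, and batch 2 values at 1 d compare cKO mice alone.

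Without the mice whose animal numbers are below 10000, more members passed, all as falls, from 2 uninjured mice that are both replicate 2. At 7 d, 46 of 760 member tests were called, against 0.708% of all genes, and at 14 d 73 of 760, against 2.15%. Neurons had 15 of 78 members called at 7 d, against 2.02% of all genes, and held most of the calls at 14 d, with 47 of 78 against 8.08%, where the median was −1.23 against 0.33 over all genes. In astrocyte cluster 7 at 7 d the count was 14 of 76 against 0.78%, and in endothelial cells at 14 d 13 of 78 against 3.15%. Without WT uninjured replicate 1 alone, 22 of 748 member tests were called at 7 d, against 0.368% of all genes, and 14 of 748 at 14 d, against 0.451%.

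Between genotypes, the comparison asks whether deleting Ryk with this Cre altered the members after the lesion, as the mean over 1 d, 7 d and 14 d of cKO minus WT. EdgeR called 0 of 750 member tests, against 0.00133% of all genes, with 12 higher and 8 lower at an unadjusted p under 0.05, or 2.67% of member tests against 3.31% of all gene tests, and DESeq2 called 0. The median log2 difference was 0.08, against 0.18 over all genes. In astrocyte cluster 7, 8 members were lower and 1 higher at that p, or 11.8% against 4.95% of all genes of that cluster, and the summed level had a log2 difference of −0.43, with −0.57 within replicate 1 and −0.27 within replicate 2, against a spread within groups of 0.352. Over the 10 clusters the median difference of the sums was −0.04, with −0.36 within replicate 1 and 0.12 within replicate 2, and −0.33 with the conditions in the cell names. Ryk itself had 109 ± 30.7 CPM in the astrocyte clusters 2, 5 and 7 of WT mice (n = 7) and 89.2 ± 33.5 in those of cKO mice (n = 8), with overlapping ranges. The lowest cKO value, 24.0 CPM in cKO 1 d replicate 1, rests on 1 UMI, and cKO uninjured replicate 1 had 6 UMIs in 1 cluster. At 7 d and 14 d the levels were 94.0, 119, 121 and 123 CPM in the cKO and 157, 116, 105 and 108 in the WT. The sources do not give where the deleted exons lie relative to the sequenced 3′ tag.

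Other genes of the pathway were followed as lists in the same 10 clusters. For the 13 subunits encoded by mitochondrial DNA, edgeR called 1 of 129 tests at 1 d, against 0.0412% of all genes, and 1 at 7 d, against 0.0691%. At 1 d the call was mt-Nd3 of complex I in astrocyte cluster 7 (log2 difference 2.68, SE 0.502, adjusted p = 0.00391), and DESeq2 called 0 at 1 d. Its levels at 1 d were 2513 CPM in WT replicate 1 and 2344 in cKO replicate 1, against 450.2 and 130.4 in replicate 1 of the uninjured mice, but 141 in cKO replicate 2, against 159 and 118 in replicate 2 of the uninjured mice, so the difference was in the shallow replicate 1 mice. At 7 d, mt-Atp8 of complex V fell in microglia of cluster 10 (−2.15, SE 0.527, adjusted p = 0.0478 in edgeR). It had 1089 and 2086 CPM in the WT uninjured mice and 2164 in cKO uninjured replicate 2, and 85.6, 588, 266 and 397 in the 7 d mice, all of them lower. DESeq2 called 2 tests of these subunits as falls at 7 d. Their median at 7 d was 0.14, while that of the nuclear members was −0.61. The assembly factors, which build the complexes, had a median of −0.12 at 7 d over 230 tests, the tricarboxylic acid cycle enzymes, which supply NADH and succinate, −0.18 over 154, and glycolytic enzymes, which make ATP in the cytosol, −0.24 over 146. In each of these 3 lists edgeR and DESeq2 called 0 at 7 d, and at an unadjusted p under 0.05 edgeR had 8, 10 and 16 tests lower and 2, 4 and 2 higher, or 4.35%, 9.09% and 12.3% of their tests against 7.39% of all gene tests.

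The remaining lists held 5 near members such as Ndufa4l2 (median −0.55 over 42 tests at 7 d, 6 lower and 0 higher at an unadjusted p under 0.05, or 14.3% against 7.39% of all gene tests), 12 transcriptional regulators of mitochondrial genes (0.09 over 51, 0 lower and 1 higher, or 1.96%) and 5 nuclear long RNAs (0.36 over 49, 2 lower and 4 higher, or 12.2%). EdgeR called 0 in them at 7 d, and DESeq2 called 1 rise among the nuclear long RNAs and 0 in the others. At 1 d and 14 d and between genotypes, edgeR called 0 in all lists but the mitochondrially encoded one at 1 d, and DESeq2 called 2 rises among glycolytic enzymes and 1 among nuclear long RNAs at 1 d and 3 falls among mitochondrially encoded subunits at 14 d. Of the 7 lists, the near members had the median closest to that of the 84 at 7 d.

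RefSeq promoter windows of 300 bases on GRCm38.p6 were found for 67 members, 72 windows in all, and were searched on both strands for motifs of factors known to act on mitochondrial genes. The NRF1 motif GCATGCGC was in 10 of 72 windows (13.9%) against 2.71% of all 32851 windows, the GABP motif CCGGAAG in 17 (23.6%) against 8.86%, and the YY1 motif AAGATGGC in 9 (12.5%) against 2.75%, so most member windows held none of a given motif, and the shares were not tested. The windows of 2 complex IV subunits are shown. Cox5b is the member called by edgeR in astrocyte cluster 7 at 7 d, a call lost with DESeq2, and Cox6a1 holds NRF1 and GABP matches. A link between motifs and levels was not tested. Capitals mark matches on either strand: in Cox6a1 (chr5:115348909-115349208, minus strand) GCGCATGCGC is an NRF1 match on both strands that overlap, and CTTCCGG is a GABP match. Cox5b (chr1:36691237-36691536, plus strand) holds none of the 3 motifs in this window.
Cox5b: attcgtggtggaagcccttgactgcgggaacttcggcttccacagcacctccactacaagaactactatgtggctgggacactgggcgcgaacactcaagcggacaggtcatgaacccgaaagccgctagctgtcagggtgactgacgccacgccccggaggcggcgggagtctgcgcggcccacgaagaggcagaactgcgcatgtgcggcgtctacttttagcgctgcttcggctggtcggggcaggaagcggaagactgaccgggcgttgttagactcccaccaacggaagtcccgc
Cox6a1: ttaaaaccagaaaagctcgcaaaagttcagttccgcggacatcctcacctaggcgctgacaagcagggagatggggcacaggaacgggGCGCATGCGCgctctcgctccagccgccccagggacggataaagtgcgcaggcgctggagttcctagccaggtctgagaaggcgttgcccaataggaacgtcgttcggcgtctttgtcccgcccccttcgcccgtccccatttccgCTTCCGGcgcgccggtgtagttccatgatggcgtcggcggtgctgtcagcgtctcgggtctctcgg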

How the data were processed

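Single-cell 3′ tag libraries of 16 mice were read from the table deposited by the authors, whose values are UMI counts per gene and cell that the authors made with Cell Ranger on GRCm38 (mm10), and the clusters are those the authors made with Seurat in R 4.1.2. Doublets were not called here. Cells were assigned to mice by animal number and barcode. Within a cluster, the counts of a mouse's cells were summed where it had 10 or more there and 50 or more in all, and the 10 clusters with at least 12 such mice were tested. The 8 groups were fitted together in each cluster with edgeR 4.0.16 (limma 3.58.1, R 4.3.3), using its TMM factors, its filter on low counts and its quasi-likelihood F-test, and p-values were adjusted by the method of Benjamini and Hochberg over all genes of a cluster and contrast, with a threshold of 0.05. Contrasts were the mean of WT and cKO at a time minus the mean of both uninjured groups, and cKO minus WT averaged over 1 d, 7 d and 14 d, and a group with 1 mouse was assumed to vary like the others. Levels are plain CPM or percent of UMIs, and summaries used Python 3.11.15, numpy 2.4.6, pandas 2.3.3 and scipy 1.17.1, with figures by matplotlib 3.10.9. The 95% Wilson intervals cover counting error only, and the upper bound was a median of 1.09 times the lower over 145 sums. Totals per mouse were 536263 to 9008729 UMIs.

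Genes were named if called, if they have tissue isoforms, if they are catalytic or core subunits, if they have the highest level of their complex, or if they were among the 5 with the widest ratio between cluster means after adding 10 CPM. The members and gene lists were chosen with earlier results of these data known. Replicate pairing was taken from the batch number, and whether replicates deviate together was checked by correlating, across genes, the difference between replicates 1 and 2 of 1 group with that of another: the median r over 21 pairs of groups was 0.0984 in cluster 1 and 0.0469 in cluster 7. Alternatives were DESeq2 1.42.0, no filter on low counts, at least 30 cells, a replicate block, leaving out mice with animal numbers below 10000, the conditions in the cell names, mitochondrially encoded genes left out, WT mice alone, clusters before cells left Cluster 2, cells thinned to 1000 UMIs, a mean over cells, Ndufab1 and Cyc1 added to the members and leaving out each mouse in turn. The fits were tested on simulated data.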

Additional observations from a re-analysis of the deposited data

Results flagged for a closer look

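In WT 14 d replicate 1 the summed level of the members stood apart from that of the other 3 mice at 14 d in 6 clusters. It was 1.67% in endothelial cells of cluster 1, where the others had 0.886% to 1.01%. It was 1.65% in oligodendrocytes of cluster 4 (others 0.616% to 0.689%) and 3.69% in astrocyte cluster 5 (others 2.45% to 2.63%). It was 1.28% and 1.85% in microglia of clusters 6 and 10 (others 0.649% to 0.730% and 1.04% to 1.12%) and 2.17% in pericytes of cluster 9 (others 1.04% to 1.21%). What singled it out was a gap to the nearest mouse that took most of the range of its group. This was seen in 6 of 26 groups of mice examined, all 6 of them clusters of this mouse. This mouse was also the highest of the 4 in the other 5 of 11 clusters with 4 mice at 14 d, with 2.61% in cluster 8 (others 1.08% to 1.36%), 2.15% in cluster 11 (0.605% to 1.01%), 4.17% in cluster 2 (2.46% to 2.96%), 0.880% in cluster 7 (0.487% to 0.623%) and 0.623% in cluster 3 (0.326% to 0.418%). The clusters of 1 mouse share a library and are not independent. It lay above the mean of all mice in 10 of 10 tested clusters, with a median log2 deviation of 0.60, as did WT uninjured replicate 2 (0.53) and cKO 1 d replicate 2 (0.55). The cause was not tested.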

How the results depend on the processing

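The ratio of 4.24 between clusters 5 and 3 stayed between 4.07 and 4.43 without each mouse in turn and between 3.58 and 4.75 in the other alternatives. The counts of 0 members at 1 d and between genotypes stayed 0 in all alternatives run for them. At 7 d, where 1 member was called, the count was 0 with DESeq2, 0 with the conditions in the cell names, 0 in WT mice alone, 8 of 818 with no filter on low counts (0.154% of all genes called), 3 of 668 with at least 30 cells (0.0153% of all genes), 46 without mice with animal numbers below 10000, and 6 with the replicate block. At 14 d, where 0 were called, the count was 1 with no filter (0.324% of all genes), 1 with mitochondrially encoded genes left out (0.198%), 73 without mice with animal numbers below 10000, and 2 with the replicate block. Leaving out 1 mouse gave 0 to 22 at 7 d and 0 to 14 at 14 d. At 7 d it was 22 without WT uninjured replicate 1, 3 without cKO uninjured replicate 1 (5 clusters and 374 member tests, the clusters in which that mouse had enough cells), 2 without WT 14 d replicate 1, WT 14 d replicate 2 or WT 7 d replicate 1, and 0 without WT 7 d replicate 2 or cKO 7 d replicate 2. At 14 d it was 14 without WT uninjured replicate 1, 6 without cKO uninjured replicate 1 (the same 5 clusters), 2 without cKO 1 d replicate 1 or cKO 1 d replicate 2, and 1 without WT 14 d replicate 1, cKO 7 d replicate 1 or cKO 7 d replicate 2. The cause was not tested.

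The log2 difference of Cox5b in cluster 7 at 7 d ran from −2.54 to −1.62 without each mouse in turn, and was −2.13 with DESeq2, −2.03 with the replicate block, −1.55 in WT mice alone and −0.72 with the conditions in the cell names. Medians of the summed differences moved by less than the spread within groups, 0.486, with leave-one-out ranges of −0.24 to 0.33 at 1 d, −0.63 to −0.10 at 7 d, −0.52 to 0.12 at 14 d and −0.24 to 0.11 between genotypes. They were −0.76 at 7 d and −0.55 at 14 d without mice with animal numbers below 10000. The 14 d median changed sign without WT 14 d replicate 2 (0.12), without cKO uninjured replicate 2 (0.11) and without WT uninjured replicate 2 (0.01), and the 7 d and 14 d medians changed sign with the conditions in the cell names (0.07 and 0.19).

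Uninjured microglia rest on 13 to 79 cells a mouse, WT at 1 d on 1 mouse, and depth, replicate and time are partly tied, so a difference in time and one in library cannot be told apart within replicate 1.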
